A study of Homo sapiens with 4 samples.

Results

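The first 50 Mb of human chromosome 8, which hold the whole short arm, the centromere and the start of the long arm, were described in 2 Meg-01 clones with a GATA1 knockdown. The region was taken from probe positions on hg18: every probe that is not a control and whose smaller coordinate lies under 50000000 was included, and the probes of TNFRSF10A, TNFRSF10B, ANK1, ANGPT2, CLU and BNIP3L were left out. This gave 584 of the 40974 probes, and 432 of the 30910 genes after the probes of a gene were averaged. Of these, 245 genes, or 56.7%, had at least 1 probe well above background in both RNAs on all 4 arrays and are called measured genes here. The share was 56.7% over the whole array as well, with 17538 measured genes. The region was chosen by the log2 ratios of its genes in these same arrays, so those ratios are given below as a description. The one test that was run on them is printed beside its share over the whole array, and nothing is read from it.

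The cells were Meg-01, an established megakaryoblastic line of human origin. The clones GATA1 5-13 and GATA1 4-14 were each grown from 1 soft agar colony after infection with a GATA1 shRNA lentivirus and puromycin selection, while GATA1 Neg was a pool of Meg-01 cells infected with a lentivirus that carries a negative control shRNA. All 3 RNAs therefore came from infected cells, and a clone differed from the pool both in its shRNA and in being a single clone. RNA of each clone was hybridized together with GATA1 Neg RNA on 2 two-colour arrays with the dyes swapped, and the value used throughout is the log2 ratio of clone over GATA1 Neg, where 0 is no difference and values below 0 are a lower level in the clone.

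The short arm of chromosome 8 carries genes with many unrelated roles: the defensin cluster, a run of ADAM metalloproteases, growth control genes around the receptor FGFR1, and several genes studied as tumour suppressors because the arm is often lost in carcinomas. Genes of an arm are mostly transcribed one by one, each from its own promoter. GATA1 itself, the zinc finger factor that drives megakaryocytic and erythroid genes, is X-linked.

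All 4 arrays lay on 1 slide, between 135 and 152 of 43376 spots per array were marked as outliers and left out, and between 61.6% and 66.4% of the spots of a channel were well above background. The log2 ratio of GATA1 was -0.21 and -0.34 in GATA1 5-13, or 82.7% of GATA1 Neg, and -0.43 and -0.58 in GATA1 4-14, or 70.6%. In GATA1 Neg, 7 of 9 megakaryocytic markers (among them ITGA2B, ITGB3 and GP9) and 6 of 6 erythroid markers were well above background on all 4 arrays. Of the granulocytic and monocytic markers 1 of 5 was, LYZ, and of the lymphoid ones 2 of 5, CD3E and CD79A. The extraction text of the labels speaks of CMK, another megakaryoblastic line, while every other label says Meg-01; the labels' Meg-01 was kept.

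The region sat below the level of GATA1 Neg in GATA1 5-13 and slightly above it in GATA1 4-14. Over the 245 measured genes, the median log2 ratio was -0.14 on both arrays of GATA1 5-13 and 0.046 and 0.086 on the arrays of GATA1 4-14. Averaged per clone, the median was -0.14 in GATA1 5-13 (quartiles -0.29 and -0.0060), which is 90.9% of GATA1 Neg, and 0.067 in GATA1 4-14 (quartiles -0.020 and 0.16), or 104.8%. Both arrays of GATA1 5-13 lay below both arrays of GATA1 4-14, and the medians of the clones were on opposite sides of 0. Under the other background corrections and normalizations these medians stayed between -0.15 and -0.085 in GATA1 5-13 and between 0.047 and 0.077 in GATA1 4-14. These are RNA levels of bulk cultures, in which fewer cells with a transcript and less of it per cell cannot be told apart.

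The shift was shallow and broad rather than carried by a few genes. In GATA1 5-13, 185 of the 245 measured genes (75.5%) had a ratio below 0, where the share over all measured genes of the array was 51.8%. In GATA1 4-14, 73 of them (29.8%) were below 0, where the array's share was 49.5%. By array, the share below 0 was 76.3% and 72.7% in GATA1 5-13 and 38.0% and 32.7% in GATA1 4-14. A difference from GATA1 Neg of more than 2-fold is more than 1 on the log2 scale. It was seen in 4 measured genes in GATA1 5-13 and 3 in GATA1 4-14. These were 1.63% and 1.22% of the region's measured genes, against 1.90% and 0.844% of the array's, and nothing is read from them. The SD over genes was 0.36 in GATA1 5-13 and 0.25 in GATA1 4-14, close to the 0.34 and 0.23 of the rest of the array, so that the genes of the region were as scattered as others around a median that was displaced.

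The displacement was close in size to the difference of a single gene between the dye-swapped arrays of a clone, which is not the scatter of a median over genes. The median absolute difference between the arrays of a clone was 0.097 in GATA1 5-13 and 0.089 in GATA1 4-14 per measured gene. The clones differed by a median of -0.21 per gene (GATA1 5-13 minus GATA1 4-14), against -0.0074 over the rest of the array and 0.012 over the rest of chromosome 8. For 153 of the 245 measured genes (62.4%), both arrays of GATA1 5-13 lay below both arrays of GATA1 4-14, and for 25 (10.2%) both lay above. Over all measured genes of the array these shares were 31.4% and 29.7%. Since the arrays of a clone share its RNA, this compares 2 clones, each with n = 1.

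Transcripts with and without a current gene name stood on the same sides of 0. The 130 measured genes with a current RefSeq symbol had medians of -0.16 in GATA1 5-13 and 0.097 in GATA1 4-14, and the 115 without one had -0.13 and 0.025. Of the 67 measured genes with more than 1 probe above background, 47 had all probes below 0 in GATA1 5-13 and 12 had probes on both sides. In GATA1 4-14, 40 had all probes above 0 and 16 had probes on both sides. The median range between the probes of a gene was 0.11 in GATA1 5-13 and 0.082 in GATA1 4-14. No share over the whole array is at hand for these counts of genes by the sides of their probes, so nothing is read from them.

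The test across the array made few calls in the region. A moderated test with limma, of whether the 2 clones averaged 0, gave an unadjusted p under 0.05 to 13 genes with a lower mean and 16 with a higher mean among the 432, or 3.01% and 3.70%, where 3.95% and 3.44% of the 30910 genes of the array were called. With Benjamini-Hochberg adjustment, 0 genes of the region and 0 of the array passed 0.05. When the 4 arrays were taken as 4 values with the replicate number as a block, the count at the unadjusted threshold was 71 in place of 29, of which 5 passed after adjustment. Over the array, that setting called 18.0% of the 30910 genes, and 206 genes passed after adjustment. As the same contrast was used to pick the region, nothing is read from these counts.

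GATA1 Neg RNA was on every array, so anything particular to it enters the ratios of both clones, and its own spread was not measured. For completeness, 101 of the 432 genes (23.4%) were below 0 in both clones, against 28.3% over the array, and 51 (11.8%) were below 0 on all 4 arrays, against 13.4%. Nothing is read from them either.

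Along the chromosome, the clone medians kept their side of 0 in every window of the region, though some lay close to 0. In windows of 5 Mb counted from the tip of the short arm, all 10 medians over measured genes were below 0 in GATA1 5-13, as were 46.6% of the 506 windows elsewhere in the genome with at least 10 measured genes. All 10 were above 0 in GATA1 4-14, as were 49.4% of those elsewhere. In GATA1 5-13 the windows from 15 to 20 Mb (20 genes) and from 35 to 40 Mb (27 genes) had the lowest medians, of -0.26 and -0.27, and the last one, from 45 to 50 Mb (11 genes), the one nearest to 0, at -0.012.

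In GATA1 4-14 the window medians covered a narrower range on the log2 scale. They ran from 0.0034 in the window at the tip (16 genes) to 0.090 in the next, from 5 to 10 Mb (24 genes). Both arrays of GATA1 5-13 were below 0 in 9 of the 10 windows, and both arrays of GATA1 4-14 were above 0 in 9 of 10. The 2 exceptions were the last window for GATA1 5-13 and the window at the tip for GATA1 4-14. With median centring in place of loess, 9 of the 10 medians of GATA1 5-13 were below 0. In the plot of window medians, the arrays of the clones do not overlap in windows 1 to 9 and overlap in the last.

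**Figure D1:**
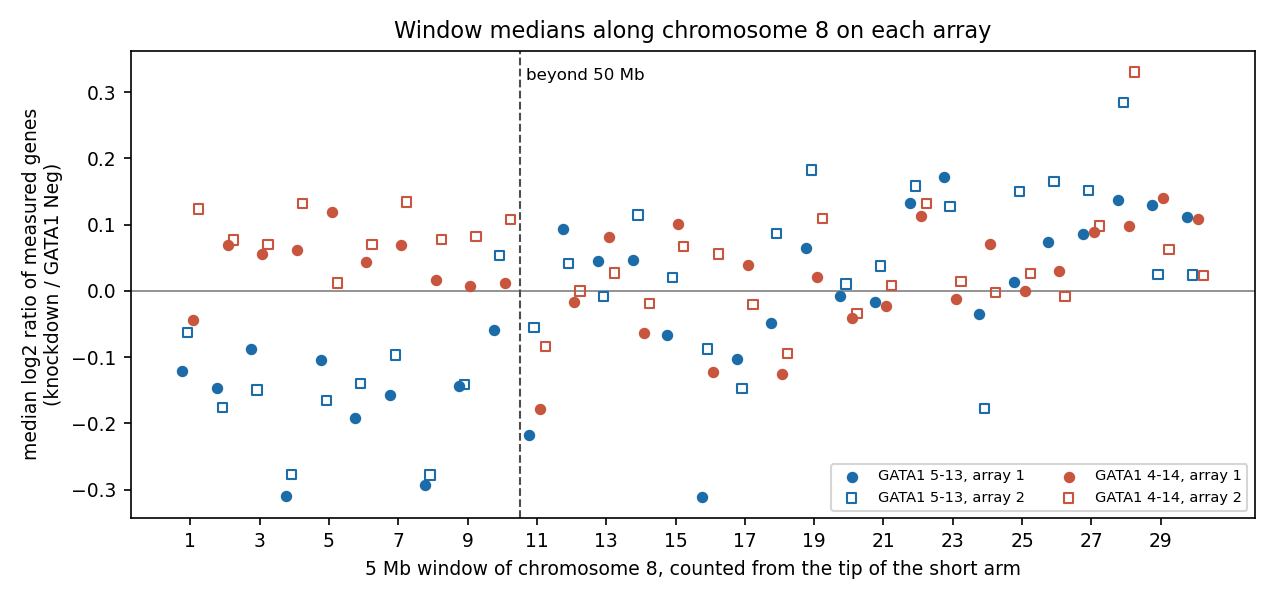
Median log2 ratio (clone over GATA1 Neg, y axis) of the measured genes in each 5 Mb window of chromosome 8, counted from the tip of the short arm (x axis), on each of the 4 arrays. In windows 2 to 9 both arrays of GATA1 5-13 (blue) lie below 0 and both of GATA1 4-14 (red) above it; right of the dashed line at 50 Mb, where windows hold as few as 3 genes, the arrays of the clones lie on either side of 0.

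Past the limit, the rest of chromosome 8 with its measured genes had medians of 0.041 in GATA1 5-13 and 0.025 in GATA1 4-14, and 43.2% and 41.1% of its genes were below 0. Of its 20 windows, 5 had a median below 0 in GATA1 5-13 and 12 a median above 0 in GATA1 4-14. The last probe inside the limit that was measured was that of SNAI2, at 49993263, with a ratio of 0.69 in GATA1 5-13 and 1.00 in GATA1 4-14. Before it came CLXN, at 49804899 and not well above background on all arrays, with -0.0059 and 0.12. The first 2 outside were PPDPFL, at 50150545, with -0.96 and -0.024, and BC028846, at 50209898 and dim, with -0.11 and -0.0051.

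Whole chromosomes and 5 Mb windows elsewhere gave a scale for the size of the shift. Against the medians of the 22 other chromosomes (1 to 7, 9 to 22 and X), that of the region was lower than all but chromosome 1, at -0.15, in GATA1 5-13. The next was chromosome 21, at -0.11, and the highest was chromosome 10, at 0.041. In GATA1 4-14 the region was above all 22, of which X was the highest at 0.024 and chromosome 21 the lowest at -0.19. Shorter stretches did reach such values. Of the 506 windows of 5 Mb elsewhere, 8.89% had a median at or below that of the region in GATA1 5-13. At or above it in GATA1 4-14 were 4.15%.

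The displacement differed by the brightness of the genes. When all genes of the array were split into 3 classes of equal size by the mean brightness of both RNAs, the 140 genes of the region in the dimmest class, of which 0 were measured genes, had medians of -0.0088 in GATA1 5-13 and 0.023 in GATA1 4-14. The middle class (144 genes, 97 measured) had -0.064 and 0.056. The brightest class (148 genes, all measured) had -0.18 and 0.066.

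By array, the medians of the brightest class were -0.20 and -0.15 in GATA1 5-13 and 0.033 and 0.11 in GATA1 4-14, and 77.7% and 26.4% of its genes were below 0. In GATA1 5-13 the brightest class was the lowest on both arrays. In GATA1 4-14 the middle and the brightest class differed by less than the arrays did, with the middle class, at 0.066, above the brightest on the first array, and with classes by the GATA1 Neg channel alone they had 0.058 and 0.060. In the rest of the array the medians of all classes lay between -0.016 and 0.015 on the 4 arrays, as the plot by brightness shows. The medians over all 432 genes, dim ones included, were -0.047 and 0.042.

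**Figure D2:**
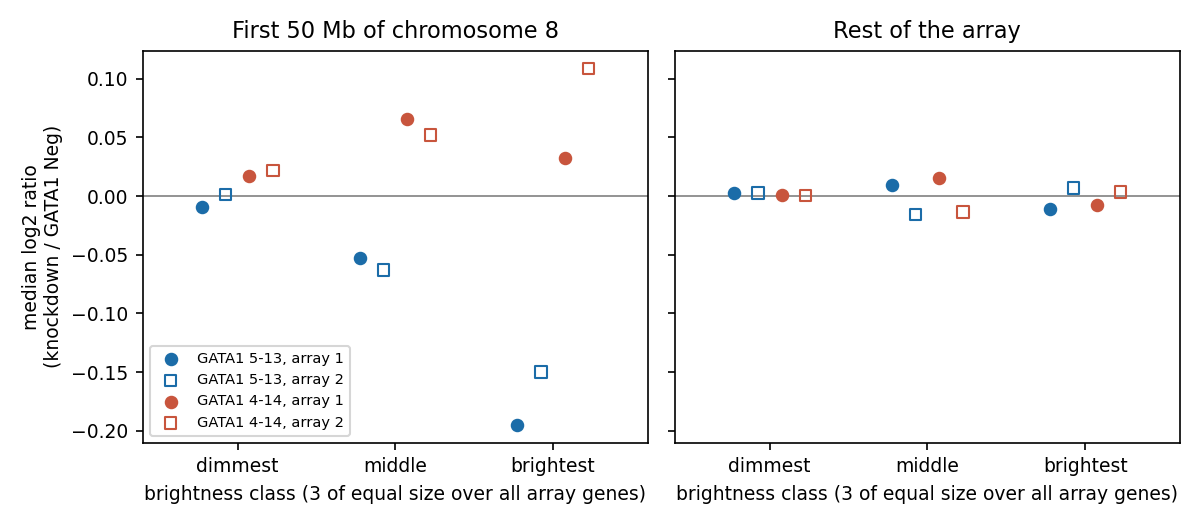
Median log2 ratio (clone over GATA1 Neg, y axis) on each array for the genes of the region (left) and of the rest of the array (right), by brightness class over all genes of the array (x axis). The brightest class of the region lies at -0.20 and -0.15 on the arrays of GATA1 5-13 and at 0.033 and 0.11 on those of GATA1 4-14, while the rest of the array stays near 0. The offset in the background correction shrinks the ratios of dim probes.

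A few genes stood off the regional median on the same side in both clones. The limit for this was a ratio at least 0.5 above or below the median of the measured genes of the region in each clone, with the same sign of the deviation on all 4 arrays. It was met by 3 genes above (1.22% of the measured genes; 0.627% of all measured genes of the array stood that far above the array's own median) and 2 below (0.816%, against 0.861%). All 5 are labelled in the plot of genes in order along the region.

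SGCZ, which encodes zeta-sarcoglycan, a membrane protein of the sarcoglycan complex of muscle, had the highest ratios of all measured genes of the region. They were 2.57 and 2.58 on the arrays of GATA1 5-13 and 1.88 and 1.93 on those of GATA1 4-14, or 5.96-fold and 3.74-fold the level in GATA1 Neg. The clones did not overlap, with GATA1 5-13 the higher. Its probe lies on chromosome 8 from 13991853 to 13991912. The next measured gene toward the tip, C8orf48, an open reading frame whose product is little described, had ratios of 1.27, 1.23, 1.20 and 1.26 in the same order of arrays, or 2.37-fold and 2.35-fold, and here the clones overlapped. The C8orf48 probe, from 13469832 to 13469891, is 522.0 kb away from that of SGCZ. The C8orf48 ratios were 0.77 and 0.74 per clone with no background correction, and the Feature Extraction ratios put it at 1.54 in GATA1 5-13. It was off the regional median under both.

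Genes on either side of this pair were not high. DLC1, a tumour suppressor candidate and the next measured gene toward the tip, with its first probe 483.7 kb from C8orf48, had -0.27 and -0.20 in GATA1 5-13 and 0.086 and 0.090 in GATA1 4-14. TUSC3, a subunit of the oligosaccharyltransferase on the other side, had -0.43 and -0.34, and 0.34 on both arrays of GATA1 4-14. Between SGCZ and TUSC3 lay 1 measured probe without a gene name, A_24_P84482, with values between -0.023 and 0.041 on the 4 arrays.

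SNAI2, also called Slug, a zinc finger repressor of E-cadherin that also acts in blood stem cells, had ratios of 0.69 and 0.70 in GATA1 5-13 and 0.95 and 1.04 in GATA1 4-14. Its probe was among the dimmer measured ones, with a mean log2 brightness of 7.54, and its ratios depended on the treatment of the background. Without background correction they were 0.26 and 0.42, and SNAI2 was no longer off the regional median, while the Feature Extraction ratios put it at 1.22 in GATA1 5-13.

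The 2 genes that far below the regional median were ADAM28 and EPHX2. ADAM28, a disintegrin metalloprotease first described in lymphocytes, had -1.01 and -0.88 in GATA1 5-13 and -0.89 and -0.74 in GATA1 4-14, and the clones overlapped. Its 2 probes, from 24249198 to 24249257 and from 24267279 to 24267888, gave -0.85 and -1.04 in GATA1 5-13 and -0.86 and -0.77 in GATA1 4-14, so they lay on the same side. EPHX2, the soluble epoxide hydrolase that turns lipid epoxides into diols, had -0.80 and -0.83 in GATA1 5-13 and -0.49 and -0.55 in GATA1 4-14, with GATA1 5-13 the lower on every array. Its probe lies from 27458032 to 27458091.

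At a limit of 0.4, 3 more genes stood above the regional median in both clones. This made 6 above (2.45% of the measured genes, against 0.918% over the array), while 2 stayed below (0.816%, against 1.26%). LPL, the lipoprotein lipase, had 0.19 and 0.53 in GATA1 5-13 and 0.51 and 0.92 in GATA1 4-14, with the arrays of a clone far apart. KBTBD11, a kelch and BTB domain protein near the tip of the arm, had 0.41, 0.59, 0.38 and 0.62. The unnamed probe A_32_P125808, from 12083172 to 12083231, had 0.45, 0.52, 0.44 and 0.52.

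**Figure D3:**
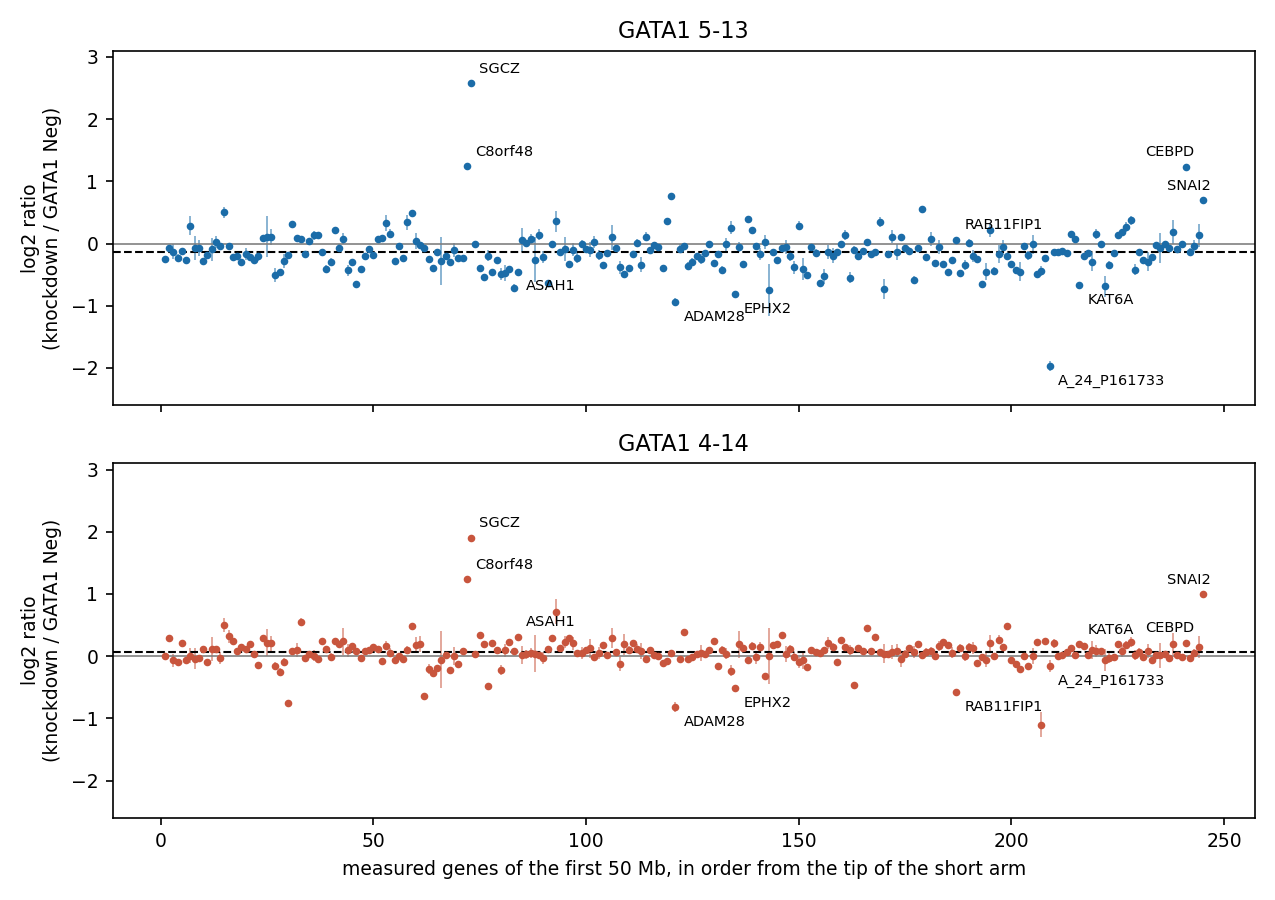
Log2 ratio (clone over GATA1 Neg, y axis) of the 245 measured genes of the region in order from the tip of the short arm (x axis) in GATA1 5-13 (top) and GATA1 4-14 (bottom). Points are means of the 2 arrays of a clone, bars run between the arrays, and the dashed line is the median over the genes, -0.14 and 0.067; SGCZ and C8orf48 stand side by side above it in both clones.

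Some genes were well above background in only one of the RNAs of a clone's arrays, so only a bound could be given: the brighter RNA's mean was divided by a floor, which was the lowest signal counted as above background on that array or, if higher, what the dim RNA gave. Next to the tip of the arm, 2 probes 40.4 kb apart gave the largest bounds. TDRP, a testis development related gene that the array calls C8orf42 (432613 to 432672), was higher by at least 2.13-fold in GATA1 5-13 and by at least 3.60-fold in GATA1 4-14. The transcript AK024566 (392236 to 392295) was at least 2.43-fold and 3.19-fold higher. In GATA1 Neg both probes were not well above background on the arrays of either clone.

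The other bounds were small. MICU3, a regulator of mitochondrial calcium uptake, was at least 1.40-fold higher in GATA1 4-14. MTUS1, a microtubule-associated protein, was lower by at least 1.25-fold in GATA1 5-13, and the homeobox gene NKX6-3 by at least 1.13-fold in GATA1 4-14.

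Genes in which the arrays of the clones did not overlap were ranked by the difference between the clones. The widest gap was at a probe without a gene name, A_24_P161733 (41488382 to 41488445), with -1.89 and -2.05 in GATA1 5-13 and -0.056 and -0.26 in GATA1 4-14. Its measured neighbours did not share this: GOLGA7, a Golgi protein 14.1 kb toward the tip, had -0.28, -0.19, 0.18 and 0.29 in the order of arrays, and GINS4, a subunit of the replicative helicase 18.6 kb farther on, had -0.10, -0.17, 0.28 and 0.13.

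KAT6A, the histone acetyltransferase that the array calls MYST3, had -0.65 and -0.68 in GATA1 5-13 and 0.17 and 0.22 in GATA1 4-14, from a probe at 41907673 to 41907732. A dimmer second probe of it gave -0.17 and 0.097 per clone. ASAH1, the acid ceramidase of lysosomes, had -0.47 and -0.44 against 0.30 and 0.32. Its 2 probes, from 17961198 to 17961364 and from 17965940 to 17965999, were on the same sides, with -0.34 and -0.56 in GATA1 5-13 and 0.42 and 0.20 in GATA1 4-14. The unnamed probe A_24_P555510, next to ASAH1, had -0.78 and -0.65 against 0.024 and 0.13, and the transcript BC034319 had -0.90 and -0.56 against -0.11 and 0.19. In all these, the arrays of GATA1 5-13 lay below those of GATA1 4-14 without overlap.

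In the other direction, CEBPD, a bZIP factor of myeloid and acute phase genes (48812159 to 48812218), had 1.22 and 1.26 in GATA1 5-13, or 2.36-fold, and only 0.20 and 0.23 in GATA1 4-14. PRKDC, the catalytic subunit of the DNA-dependent kinase and its neighbour at 36.7 kb, had values between -0.20 and -0.020. The transcript BM129308 had 0.80 and 0.73 against 0.042 and 0.063, and THC2655984 had -0.51 and -0.36 against -1.31 and -0.90. RAB11FIP1, a Rab11 effector of endosome recycling, had 0.018 and 0.10 in GATA1 5-13 and -0.63 and -0.54 in GATA1 4-14. Its 2 measured probes gave -0.69 and -0.48 in GATA1 4-14, and another, dim one gave -0.018. The plot of named genes shows that the arrays of a clone lay close together at nearly all of them.

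**Figure D4:**
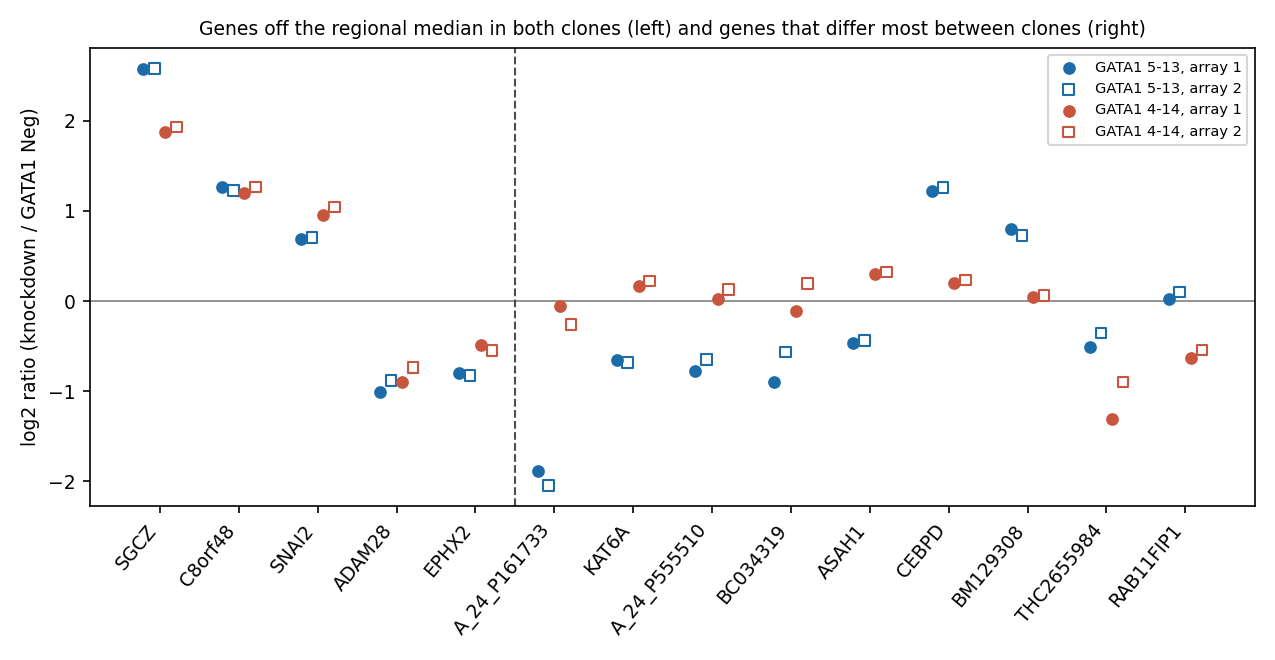
Log2 ratio (clone over GATA1 Neg, y axis) on each array for the 5 genes off the regional median in both clones (left of the dashed line) and for further genes with the largest difference between the clones (right). SGCZ lies between 1.88 and 2.58 on all 4 arrays, A_24_P161733 near -2 in GATA1 5-13 alone, and CEBPD at 1.22 and 1.26 in GATA1 5-13 against 0.20 and 0.23 in GATA1 4-14.

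The medians of the gene groups stood on the sides of the region's medians, except that of the ADAM proteases in GATA1 4-14, at -0.16. They kept their sides under each background correction and normalization tried. Over the rest of the array the median of the measured genes was -0.0075 in GATA1 5-13 and 0.00060 in GATA1 4-14. For the counts below, 75.5% of the region's measured genes and 51.8% of the array's were below 0 in GATA1 5-13. Above 0 in GATA1 4-14 were 70.2% and 50.5%. Of the 12 defensin entries, which code for antimicrobial peptides, 0 were measured genes. Of the 8 ADAM proteases on the array, 3 were: ADAM28 (above), ADAM9, a widely expressed sheddase, with -0.12 and -0.26 in GATA1 5-13 and -0.13 and -0.19 in GATA1 4-14, and ADAM32, with -0.48 and -0.49 against 0.21 and 0.24. The arrays of ADAM9 overlapped between the clones and those of ADAM32 did not.

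Of the 23 entries around FGFR1, a stretch amplified in some breast cancers, 17 were measured, 2 of them (PLPP5 and its older name PPAPDC1B) for 1 gene. Their median was -0.33 in GATA1 5-13, with 15 of 17 below 0, and 0.0085 in GATA1 4-14, with 10 above 0. FGFR1 itself, a receptor tyrosine kinase for fibroblast growth factors, had -0.22 and -0.20 in GATA1 5-13 but 0.44 and 0.53 in GATA1 4-14. EIF4EBP1, a repressor of cap-dependent translation, had -0.49 and -0.47 against 0.070 and 0.19.

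Others of this group differed less between the clones. ASH2L, a subunit of histone H3 methyltransferase complexes, had -0.43 and -0.27 against -0.073 and 0.078, and BAG4, a cochaperone of HSP70, had -0.29 and -0.11 against 0.034 and 0.23. DDHD2, a lipase, was on the same side in both clones, with -0.23 and -0.28 against -0.068 and -0.14. LSM1, a subunit of the mRNA decay ring, lay nearer to 0 in GATA1 5-13, with -0.040 and 0.066 against 0.088 and 0.21.

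All 13 genes of replication, repair and mitosis were measured. Their medians were -0.14 in GATA1 5-13, with 8 below 0, and 0.097 in GATA1 4-14, with 11 above 0. WRN, the helicase of Werner syndrome, had -0.19 and -0.13 against 0.062 and 0.11. TNKS, a tankyrase that acts at telomeres, had -0.35 and -0.48 against 0.15 and 0.090. PBK, a mitotic kinase, was above 0 on all arrays, with 0.18 and 0.26 against 0.095 and 0.23.

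Other genes of this group had arrays of a clone that lay apart. UBE2V2, a ubiquitin-conjugating enzyme variant of DNA repair, had -0.059 and 0.32 in GATA1 5-13 and -0.031 and 0.32 in GATA1 4-14. MCM4, a subunit of the replicative helicase, had -0.13 and 0.054 against -0.0088 and 0.11. In both genes the arrays of a clone lay on opposite sides of 0.

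Of the 20 blood and immune genes on the array 10 were measured, with medians of -0.093 and 0.13. SLC25A37, mitoferrin, which carries iron into the mitochondria of erythroid cells, had -0.36 and -0.44 in GATA1 5-13 and -0.074 and -0.16 in GATA1 4-14. Its 4 probes ran from -0.63 to -0.12 in GATA1 5-13. XPO7, a nuclear transport receptor used in erythroid maturation, had -0.31 and -0.34 against 0.33 and 0.27, and CTSB, the lysosomal protease cathepsin B, had -0.35 and -0.22 against -0.11 and -0.017. PPP3CC, a catalytic subunit of calcineurin, had -0.10 and 0.30 against 0.13 and 0.46, and its clones overlapped.

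Of the 17 mitochondrial, lipid and redox genes, 16 were measured, with medians of -0.16 and 0.061, 10 below 0 in GATA1 5-13 and 12 above 0 in GATA1 4-14. EPHX2 and ASAH1 are given above. GSR, the glutathione reductase, had -0.63 and -0.46 in GATA1 5-13 and 0.014 and 0.18 in GATA1 4-14, and AGPAT5, an acyltransferase of phospholipid synthesis, had -0.070 and -0.27 against 0.15 and 0.086. FDFT1, the squalene synthase, lay between -0.013 and 0.23 on the 4 arrays, VDAC3, a channel of the outer mitochondrial membrane, between -0.016 and 0.24, and NAT1, an arylamine acetyltransferase, between -0.031 and 0.16.

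Of the 16 tumour suppressor candidates of the short arm, 10 were measured, with medians of -0.21 and 0.089, 8 below 0 in GATA1 5-13 and 9 above 0 in GATA1 4-14. TUSC3, DLC1, WRN and TNKS, given above, were among them. PPP2R2A, a regulatory subunit of protein phosphatase PP2A, had -0.33 and -0.17 in GATA1 5-13 and -0.077 and 0.17 in GATA1 4-14. PINX1, a telomerase inhibitor, did not share the sides, with 0.24 and 0.20 against 0.25 and 0.24.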

How the data were processed

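RNA of GATA1 5-13 and GATA1 4-14 was compared with GATA1 Neg RNA on 2 arrays per clone with the dyes swapped. The authors deposited scanner files, written by version 9.5.3.1 of Agilent Feature Extraction, whose probes are placed on hg18. The mean spot and local background intensities in them were deposited by the authors with neither correction nor normalization, beside a log10 ratio made by that program from background-subtracted, dye-normalized signals. The authors' series-wide table, as deposited, held the same log10 ratios and was used as an alternative. The combination by Rosetta Resolver was not repeated here.

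The intensities were turned into log2 ratios in limma 3.58.1 (R 4.3.3, with version 1.17.8 of data.table as reader): normexp with an offset of 50, loess within each array, control and outlier spots left out, the sign turned to clone over GATA1 Neg by the dyes in the labels, and spots and then probes of a gene averaged. A measured gene rests on the probes well above background in both RNAs on all 4 arrays. The number of arrays limits the precision. Each clone's pair of arrays was averaged and counted once, so n = 2 clones against 1 control RNA, and p-values measure the spread between these samples alone. The test, on all 30910 genes, was limma's two-sided moderated test with Benjamini-Hochberg adjustment, tested on simulated data. The tables were made with Python 3.11.15, pandas 2.3.3 and numpy 2.4.6.

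Current symbols were found for 17061 of the array's 18804 RefSeq accessions in RefSeq's GRCh38.p14 gene table, from which no coordinates were taken. No annotation of hg18 was used here, so exons and introns are not given. Replicate numbers stand for the dye orientation per the labels, and the deviations of same-numbered arrays from the clone means correlated across probes with r = 0.77.

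The region, the 7 gene lists and the rules were chosen with earlier results of these data known. Named were up to 10 genes off the regional median in each direction, up to 5 bounds and up to 5 clone differences in each direction, the up to 5 brightest measured genes of each list, and the genes next to the 50 Mb limit; 1 list member is not reported here. Chosen after their values were seen were FGFR1, PLPP5, PPAPDC1B, TNKS, GSR, PINX1, KBTBD11, A_32_P125808, ESCO2, PTK2B, PPP1R3B, and the neighbours of SGCZ, CEBPD and A_24_P161733. Alternatives were no background correction, both sets of Feature Extraction ratios, median centring, probes above background alone, outlier spots kept, single probes, the 6 genes kept, RefSeq genes alone, each array left out, all 4 arrays taken singly, once with the replicate block and once with no block, an intensity trend, an error-weighted mean, other windows and brightness classes, and deviations of 0.4 and 1.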

Additional observations from a re-analysis of the deposited data

Results flagged for a closer look

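In 27 of the results checked, both arrays of GATA1 5-13 lay on one side of 0 and both arrays of GATA1 4-14 on the other. These come from the regional medians, the windows and some of the measured genes named above, so the count depends on which genes were checked. The unnamed probe A_24_P84482, between SGCZ and TUSC3, had such sides too but was not among the results checked. Of the 245 measured genes, 81 (33.1%) lay below 0 on both GATA1 5-13 arrays and above 0 on both GATA1 4-14 arrays. The share over all measured genes of the array was 9.88%. The difference between the clones was not tested, since each clone is 1 replicate. Differences are given as GATA1 5-13 minus GATA1 4-14 on the log2 scale. For the median over the region it was -0.088 over all genes and -0.20 over measured genes. For the 5 Mb windows 2 to 9, counted from the tip of the short arm, it was -0.27, -0.19, -0.35, -0.17, -0.20, -0.22, -0.28 and -0.21, so the windows around 15 to 20 Mb and 35 to 40 Mb had the widest gaps.

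Among single genes, the ratio of GATA1 5-13 was the lower by -0.86 in KAT6A, by -0.79 in the unnamed probe A_24_P555510 and by -0.76 in ASAH1. The difference was -0.73 in TUSC3, -0.71 in ADAM32, -0.69 in FGFR1 and -0.64 in GSR. It was -0.63 in XPO7, -0.61 in EIF4EBP1 and -0.53 in TNKS. Smaller differences were found in GOLGA7 (-0.47), GINS4 (-0.34), BAG4 (-0.33), DLC1 (-0.33), AGPAT5 (-0.29) and WRN (-0.25). The reverse, with GATA1 5-13 the higher, was found among the genes checked only in RAB11FIP1 (0.64). Some list members outside the genes checked went this way too and are given for that reason. ESCO2 had 0.35 and 0.44 in GATA1 5-13 against -0.071 and -0.046 in GATA1 4-14. PTK2B had 0.36 and 0.15 against -0.14 and -0.33, and PPP1R3B 0.10 and 0.18 against -0.066 and -0.019. By clone mean, 11 of the 245 measured genes (4.49%) were above 0 in GATA1 5-13 and below 0 in GATA1 4-14. The share over the array was 19.3%.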

How the results depend on the processing

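The medians over all 432 genes kept their sign under every alternative run but not their size, and the cause was not tested. In GATA1 5-13 the median of -0.047 was -0.0084 with no background correction, -0.030 with the Feature Extraction ratios and with the series-wide values, -0.049 with median centring, -0.14 with the filter on dim probes, -0.058 with single probes and -0.059 with RefSeq genes alone, and -0.054 to -0.053 with each array of the clone left out. In GATA1 4-14 the median of 0.042 was 0.011, 0.015, 0.015, 0.060, 0.067 and 0.059 (no background correction, Feature Extraction, series-wide values, median centring, dim filter, RefSeq genes), and 0.037 to 0.047 with each array left out. The difference from the rest of chromosome 8, -0.063 in GATA1 5-13, was -0.014, -0.030, -0.030, -0.084, -0.18, -0.076 (single probes) and -0.10 in the same order. In GATA1 4-14 it was 0.032, and 0.0075, 0.015, 0.015, 0.043 (dim filter) and 0.047 (RefSeq genes). The brightest class moved by less than the spread between arrays. Over all genes, 18 of 19 windows of 2.5 Mb lay below 0 in GATA1 5-13 and above 0 in GATA1 4-14, and over measured genes median centring left 9 of 10 windows of 5 Mb below 0 in GATA1 5-13.

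The count of genes below 0 in both clones, 101, was 62 (of 245 genes) with the dim filter, 39 (of 226) with RefSeq genes and 96 to 114 with each array left out. The count below 0 on all 4 arrays, 51, was 16 with median centring and 19 with RefSeq genes, and leaving out an array gave 55 to 85, the highest 2 being 79 and 85 without the first and without the second array of GATA1 4-14. The count at an unadjusted limma p under 0.05, 29, was 18 with the dim filter and 24 to 35 with each array left out. With the 4 arrays as 4 values it was 71 with the replicate block (5 after adjustment) and 75 without it (14). An error-weighted mean gave 86 (46). Over all 30910 genes, these 3 settings called 18.0% (206 genes after adjustment), 18.2% (940) and 17.4% (2998), so nothing is read from the counts in the region. The arrays of a clone are not independent, so the counts with the 4 arrays as 4 values treat technical arrays as replicates. The error-weighted mean took its p-values from the ratio errors given by Feature Extraction, added up over the 4 arrays, and not from a spread between arrays or clones. The count of genes off the regional median, 5, was 8 at a deviation of 0.4 and 2 at a deviation of 1, and 5 to 7 with each array left out. At a deviation of 1, 2 genes were above (0.816% of the measured genes, against 0.154% over the array) and 0 below (against 0.2%). An alternative chosen after seeing the data, all probes of a gene with dim ones included, gave 7, among them the same 5.

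Signal over background limits the description: 187 of the 432 genes were not measured in both RNAs on all 4 arrays, and for these a ratio near 0 says little. With 2 clones against 1 pool, what belongs to a clone, to its shRNA and to the control RNA cannot be told apart.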
